A study of Mus musculus with 12 samples.

Results

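A set of 9 costimulatory receptors of the TNF receptor superfamily was followed in CD4+ T cells of the spleen: Tnfrsf4, Tnfrsf9, Tnfrsf18, Tnfrsf1a, Tnfrsf1b, Tnfrsf25, Tnfrsf8, Tnfrsf14 and Cd27. Every microarray probe set annotated to exactly 1 of these genes was taken, which gave 12 probe sets for 9 of the 18193 genes on the array with a probe set of their own. The study measured 12 arrays in 4 groups of 3. Regulatory T cells (Treg, CD25hi) and conventional T cells (Tconv, CD25-) were sorted from each of 2 mouse strains at 6 weeks of age. NOD mice develop autoimmune diabetes spontaneously. B6.H2g7 mice are B6 mice that carry the H2g7 major histocompatibility haplotype of NOD, so all 4 groups share that haplotype. All cells were negative for CD8a, CD11b, CD69 and B220 at the sort, RNA of each array came from 3 pooled mice, and the RNA was amplified in 2 rounds before hybridisation. The design asks how Treg differ from Tconv in each strain, and whether that difference itself differs between the strains.

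TNF receptor superfamily members are membrane receptors that are clustered by trimeric ligands, most of them carried on antigen-presenting cells. Receptors without a death domain recruit TRAF adaptor proteins and through them activate the canonical and non-canonical NF-kB pathways, which support survival and expansion of T cells after antigen encounter. Tnfrsf1a and Tnfrsf25 carry a death domain and can also engage caspase-8. Treg are known for carrying OX40 (Tnfrsf4), GITR (Tnfrsf18) and TNFR2 (Tnfrsf1b) without prior stimulation, and agonists of these receptors are used to change Treg number or function.

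The labelled cell types were met by their defining genes. Foxp3, the transcription factor that defines Treg, averaged 5.68 in B6.H2g7 Tconv and 5.91 in NOD Tconv on the log2 scale, and was higher in Treg by 5.23 ± 0.14 (SE) averaged over both strains. Cells positive for Foxp3 after restaining were 94%, 96% and 96% of the 3 B6.H2g7 Treg pools and 89%, 95% and 95% of the NOD Treg pools, per the labels. None of the measured markers of CD8 T cells, B cells, monocytes and macrophages, dendritic cells or neutrophils was called in any of the 6 comparisons. Of 3 measured NK cell markers, 1 (Nkg7) was called, higher in NOD Treg than in B6.H2g7 Treg. The lowest intensity of any probe set was 5.78, so a level above 0 does not show that a marker was expressed. The median intensity of an array lay between 83.9 and 88.6, and arrays of 1 group correlated at 0.983 to 0.996 over all probe sets. The log2 difference between the 3′ and 5′ actin control probe sets, a measure of RNA length after amplification, averaged 3.98 ± 0.40, 3.83 ± 1.03, 3.67 ± 0.65 and 4.15 ± 0.76 (SD, n = 3) in B6.H2g7 Tconv, B6.H2g7 Treg, NOD Tconv and NOD Treg. It was lowest in the arrays numbered 1 of B6.H2g7 Treg, NOD Tconv and NOD Treg, at 2.66, 2.97 and 3.29. Values below are log2 of the deposited intensity, and a gene was called where the adjusted p-value of limma over all probe sets was under 0.05.

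Of the receptors, 5 rose in Treg in both strains and the other 4 were not called in either (5 of 5 shared), although Cd27 was called in B6.H2g7 under some alternatives. In B6.H2g7 the 5 that rose were Tnfrsf4, Tnfrsf18, Tnfrsf9, Tnfrsf1b and Tnfrsf25, and none fell. For comparison, 2.84% of all 18193 genes were called higher in B6.H2g7 Treg and 1.7% lower. In NOD the same 5 receptors were called higher, against 2.86% of all genes higher and 1.52% lower. The median log2 change over the 9 receptors was 0.69 in B6.H2g7 and 0.83 in NOD, beside 0.00 and -0.02 over all genes. The summed intensity of the 6 markers of activated or effector T cells was 10900 to 11900 in B6.H2g7 Tconv and 12100 to 14200 in B6.H2g7 Treg. In NOD it was 13000 to 13700 in Tconv and 13700 to 15100 in Treg. A sum mostly follows its brightest genes. The median log2 change of the 6 markers was 0.20 in B6.H2g7 and 0.06 in NOD. Of these markers, Gzmb was higher in B6.H2g7 Treg by 0.66 ± 0.13 (adjusted p = 0.00927) and Ifng was lower in NOD Treg at -1.18 ± 0.27 (adjusted p = 0.0354). Cd4, 1 of 4 T cell markers, was lower in Treg averaged over both strains at -0.40 ± 0.10 (adjusted p = 0.0262). Their part in the receptor differences was not tested. Since the RNA is bulk RNA, more cells that carry a receptor and more RNA per cell cannot be told apart.

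**Figure D1:**
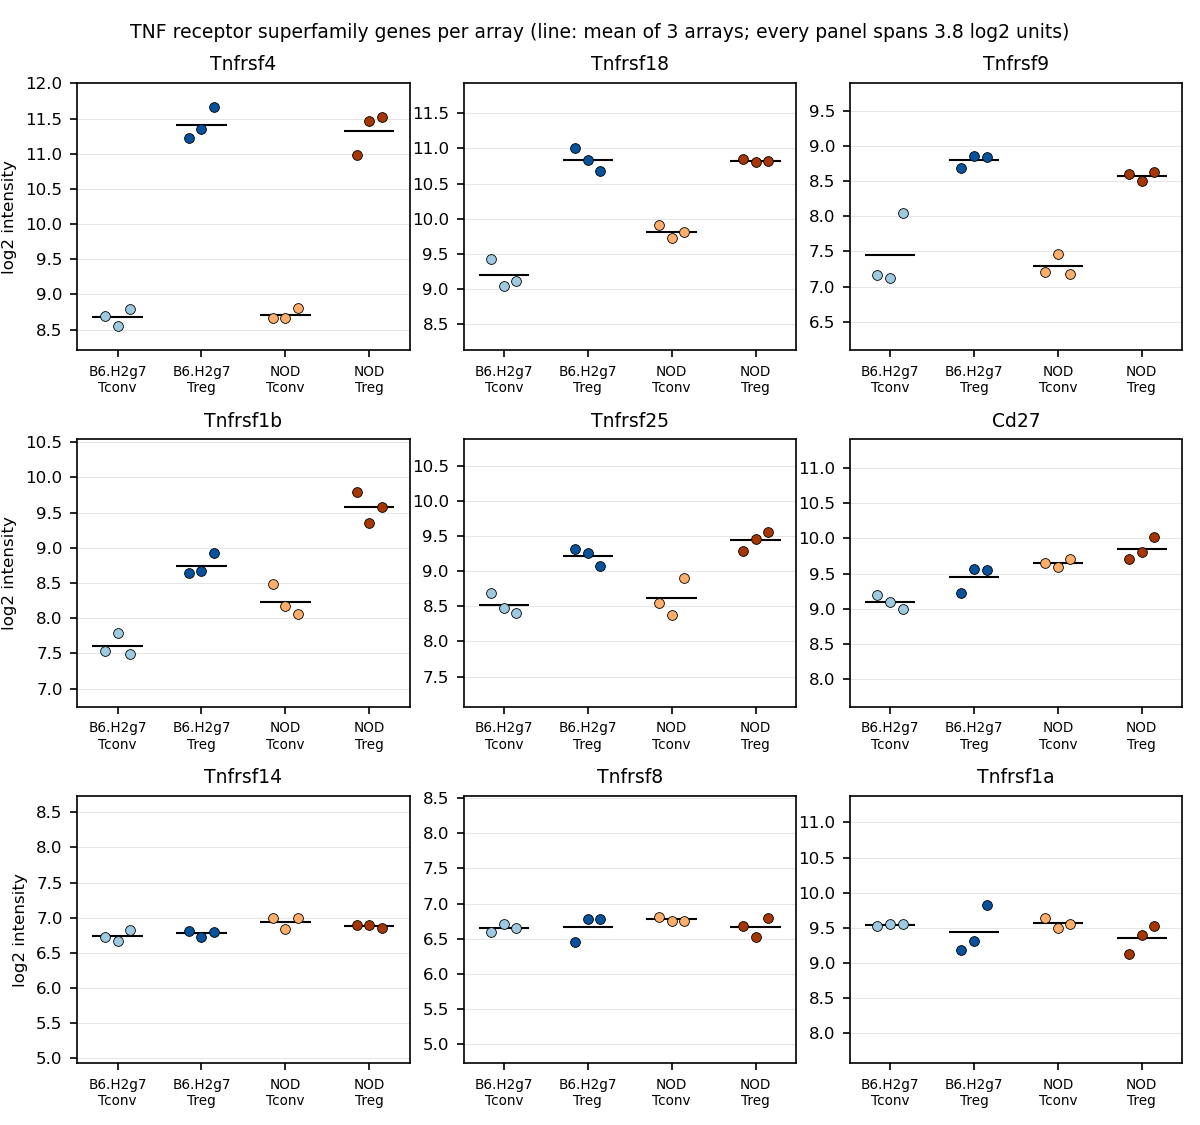
Log2 intensity (vertical axes, 1 panel per receptor, probe set of highest mean) on each of the 12 arrays by group; points are arrays and bars group means. All 3 Treg arrays lie above all 3 Tconv arrays of their strain for Tnfrsf4, Tnfrsf9, Tnfrsf18, Tnfrsf1b and Tnfrsf25. All 3 NOD Tconv arrays lie above all 3 B6.H2g7 Tconv arrays for Tnfrsf18, Tnfrsf1b and Cd27. They also do for Tnfrsf8 and Tnfrsf14, which were not called.

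Tnfrsf4 encodes OX40, the receptor for OX40 ligand (Tnfsf4), and promotes survival and memory of CD4+ T cells. Its probe set 1420351_at read 8.69, 8.55 and 8.79 on the B6.H2g7 Tconv arrays and 11.23, 11.35 and 11.66 on the B6.H2g7 Treg arrays. In NOD it read 8.66, 8.66 and 8.80 in Tconv and 10.98, 11.47 and 11.52 in Treg. The lowest Treg array thus stood 2.44 above the highest Tconv array in B6.H2g7 and 2.18 above it in NOD, and the array numbered 1 was the lowest of the 3 in both Treg groups. Tnfrsf4 rose by 2.74 ± 0.15 (SE, n = 3 per group) in B6.H2g7, a 6.68-fold difference with an adjusted p of 2.1e-07. The rise in NOD was 2.62 ± 0.15, 6.14-fold with an adjusted p of 3.63e-07.

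Tnfrsf18 encodes GITR, which lies next to Tnfrsf4 on chromosome 4 with no other protein-coding gene between them and which costimulates T cells when bound by GITR ligand. Probe set 1422303_a_at read 9.43, 9.05 and 9.11 in B6.H2g7 Tconv and 11.01, 10.83 and 10.68 in B6.H2g7 Treg. The NOD arrays read 9.91, 9.73 and 9.81 in Tconv and 10.85, 10.81 and 10.82 in Treg. The 6 Treg arrays covered a narrow range, whereas every NOD Tconv array lay above every B6.H2g7 Tconv array. The rise in Treg was 1.64 ± 0.12 in B6.H2g7 (3.12-fold, adjusted p = 2.52e-06) and 1.01 ± 0.12 in NOD (2.01-fold, adjusted p = 0.000208).

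Tnfrsf9 encodes 4-1BB, also called CD137, an activation-induced receptor that sustains T cell expansion. Its brightest probe set, 1460469_at, read 7.16, 7.13 and 8.04 in B6.H2g7 Tconv and 8.69, 8.86 and 8.85 in B6.H2g7 Treg. In NOD it read 7.21, 7.47 and 7.18 in Tconv and 8.60, 8.50 and 8.63 in Treg. The third B6.H2g7 Tconv array was the highest of the 6 Tconv arrays but still below every Treg array. Tnfrsf9 rose by 1.36 ± 0.19 in B6.H2g7 (2.56-fold, adjusted p = 0.00117) and by 1.29 ± 0.19 in NOD (2.44-fold, adjusted p = 0.00189). The other probe sets of the gene did not read alike. Probe set 1428034_a_at averaged 5.34 and 5.88 in B6.H2g7 Tconv and Treg and rose by 0.53 ± 0.10 (adjusted p = 0.00952). In NOD it read 5.15, 5.16 and 5.22 in Tconv and 6.13, 5.83 and 6.03 in Treg. Its NOD Tconv mean of 5.18 is under 5.28, the 25th percentile of all probe set means, below which levels are treated as dim here, so no size of change is given. Probe set 1421481_at was dim in all 4 groups, and read 4.85 to 5.47 on single arrays.

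The 250 bases upstream of the annotated start sites are shown for 4 of the 5 receptors that rose in Treg in both strains. The windows of Tnfrsf25, which also rose, were searched but are not printed. A short STAT motif was found in the printed windows of Tnfrsf18, Tnfrsf9 and Tnfrsf1b and not in that of Tnfrsf4. The printed windows are RefSeq sequences of build GRCm38.p6, given 5′ to 3′ on the strand of the gene, and capitals mark motif matches. The windows are chr4:156013445-156013694 (plus strand) for Tnfrsf4, chr4:156026072-156026321 (plus strand) for Tnfrsf18, chr4:150927749-150927998 (plus strand) for the downstream of the 2 annotated starts of Tnfrsf9 (shown because it holds matches, while the window of the other start holds none to any motif searched), and chr4:145246871-145247120 (minus strand) for Tnfrsf1b.
Tnfrsf4: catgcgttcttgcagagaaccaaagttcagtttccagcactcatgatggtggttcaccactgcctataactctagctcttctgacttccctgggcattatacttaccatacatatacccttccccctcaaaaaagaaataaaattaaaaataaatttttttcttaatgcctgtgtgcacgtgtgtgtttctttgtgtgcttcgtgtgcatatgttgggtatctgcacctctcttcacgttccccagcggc
Tnfrsf18: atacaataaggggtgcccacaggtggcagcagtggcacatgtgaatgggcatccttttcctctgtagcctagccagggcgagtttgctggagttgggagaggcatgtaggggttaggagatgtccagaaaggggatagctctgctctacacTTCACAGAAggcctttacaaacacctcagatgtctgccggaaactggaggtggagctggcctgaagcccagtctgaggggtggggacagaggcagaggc
Tnfrsf9: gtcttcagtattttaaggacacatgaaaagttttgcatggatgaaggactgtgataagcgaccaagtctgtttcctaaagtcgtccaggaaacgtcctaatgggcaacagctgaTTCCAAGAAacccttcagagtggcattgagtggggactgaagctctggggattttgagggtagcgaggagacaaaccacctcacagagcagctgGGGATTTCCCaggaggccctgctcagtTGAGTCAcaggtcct
Tnfrsf1b: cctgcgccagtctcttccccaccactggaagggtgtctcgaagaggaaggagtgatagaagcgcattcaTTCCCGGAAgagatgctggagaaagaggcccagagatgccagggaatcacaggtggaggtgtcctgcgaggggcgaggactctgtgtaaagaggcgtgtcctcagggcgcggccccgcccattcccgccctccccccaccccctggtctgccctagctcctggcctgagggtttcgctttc

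Motifs searched on both strands were a kB-like motif (GGGA, then 4 bases of any kind, then CC), an AP-1 motif (TGANTCA), a STAT motif (TTCNNNGAA) and a forkhead motif (TGTTTAC). The 9 receptors matched 11 windows, since Tnfrsf9 and Tnfrsf25 have 2 annotated starts each. The Tnfrsf4 window held no match to any of them, although Tnfrsf4 had the largest difference of the 9 in both strains. Tnfrsf18 held the STAT match TTCACAGAA and Tnfrsf1b the STAT match TTCCCGGAA. The printed Tnfrsf9 window held a STAT match (TTCCAAGAA), a kB-like match (GGGATTTCCC) and an AP-1 match (TGAGTCA), and none of the 3 overlap. The STAT motif was present in 5 of the 11 windows, those of Tnfrsf18, Tnfrsf1a, Tnfrsf1b and 1 each of Tnfrsf9 and Tnfrsf25, and in 7.02% of the 32851 windows of the same length upstream of all annotated starts. Of these 5 genes, Tnfrsf1a was not called in either strain. The kB-like motif was present in 4 of the 11 windows and 17.6% of all windows, the AP-1 motif in 2 and 6.75%, and the forkhead motif in 0 and 3.17%. A match describes letters in the window, not binding.

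TNF itself is bound by a pair of receptors that differed in these cells. Tnfrsf1b encodes TNFR2, the receptor without a death domain, which responds chiefly to membrane TNF and supports Treg expansion. Probe set 1418099_at read 7.53, 7.79 and 7.49 in B6.H2g7 Tconv and 8.64, 8.67 and 8.93 in B6.H2g7 Treg. The NOD arrays read 8.48, 8.17 and 8.06 in Tconv and 9.79, 9.36 and 9.58 in Treg. The 4 groups did not overlap: B6.H2g7 Tconv was lowest, then NOD Tconv, then B6.H2g7 Treg, then NOD Treg. Tnfrsf1b rose in Treg by 1.14 ± 0.14 in B6.H2g7 (2.20-fold, adjusted p = 0.000415) and by 1.34 ± 0.14 in NOD (2.53-fold, adjusted p = 0.000109). Its other probe set, 1448951_at, which the annotation gives under the same GenBank entry, averaged 7.25 ± 0.09, 7.35 ± 0.15, 7.39 ± 0.04 and 7.40 ± 0.14 (SD, n = 3) in B6.H2g7 Tconv, B6.H2g7 Treg, NOD Tconv and NOD Treg, and was called in none of the comparisons. The Treg rise in 1448951_at was 0.10 in B6.H2g7 (adjusted p = 0.822) and 0.01 in NOD (adjusted p = 0.995). The rise of Tnfrsf1b therefore rests on 1 of its 2 probe sets.

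Tnfrsf1a encodes TNFR1, the death-domain receptor for soluble TNF. It averaged 9.54 ± 0.02 and 9.57 ± 0.07 in B6.H2g7 and NOD Tconv and 9.44 ± 0.33 and 9.35 ± 0.20 in the corresponding Treg. The difference in Treg was -0.10 in B6.H2g7 (95% interval -0.42 to 0.22, adjusted p = 0.891) and -0.21 in NOD (-0.54 to 0.11, adjusted p = 0.746).

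**Figure D2:**
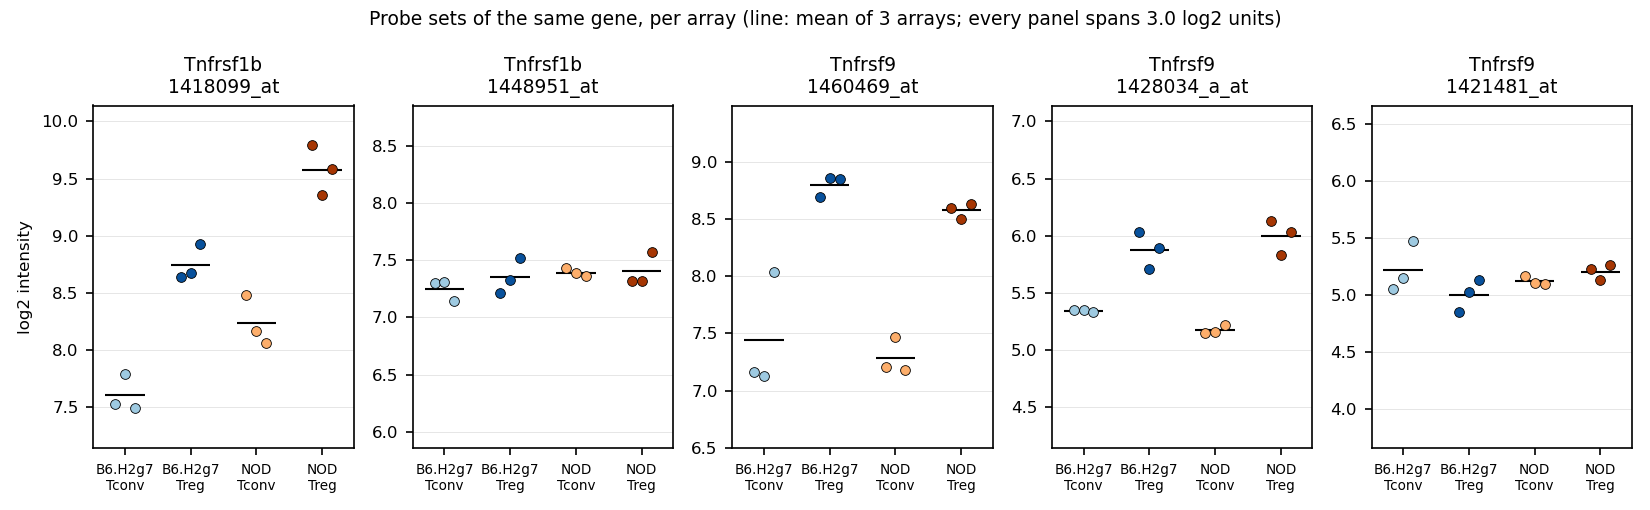
Log2 intensity by array for every probe set of Tnfrsf9 and Tnfrsf1b (points are arrays, bars group means). Dim means a group mean under 5.28, a level that is not drawn. The Treg rise shows in both strains in 1460469_at of Tnfrsf9 and 1418099_at of Tnfrsf1b. In 1428034_a_at of Tnfrsf9 all Treg arrays lie above all Tconv arrays of their strain in both strains, but its NOD Tconv mean is dim. Probe set 1421481_at is dim in all 4 groups, and the 4 group means of 1448951_at lie between 7.25 and 7.40.

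Tnfrsf25 encodes DR3, the death-domain receptor for TL1A, whose stimulation expands Treg in mice. Probe set 1422231_a_at read 8.69, 8.47 and 8.40 in B6.H2g7 Tconv and 9.31, 9.25 and 9.07 in B6.H2g7 Treg. In NOD it read 8.55, 8.38 and 8.90 in Tconv and 9.29, 9.46 and 9.56 in Treg. The groups did not overlap in either strain, with gaps of 0.38 in B6.H2g7 and 0.39 in NOD between the highest Tconv and the lowest Treg array. Tnfrsf25 rose by 0.69 ± 0.14 in B6.H2g7 (1.61-fold, adjusted p = 0.0126) and by 0.83 ± 0.14 in NOD (1.77-fold, adjusted p = 0.00376). The B6.H2g7 call was lost without B6.H2g7 Tconv array 2 (adjusted p = 0.0622) or 3 (0.0558), and without B6.H2g7 Treg array 1 (0.0501) or 2 (0.0516).

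Cd27, the receptor for CD70 that supports T cell survival from priming onward, differed less. It read 9.20, 9.09 and 8.99 in B6.H2g7 Tconv and 9.22, 9.57 and 9.55 in B6.H2g7 Treg, and 9.65, 9.59 and 9.71 in NOD Tconv and 9.70, 9.81 and 10.02 in NOD Treg. Within B6.H2g7 the lowest Treg array exceeded the highest Tconv array by 0.02, and in NOD the groups overlapped. The difference was 0.36 ± 0.12 in B6.H2g7 (adjusted p = 0.166) and 0.19 ± 0.12 in NOD (adjusted p = 0.671), and 0.28 ± 0.08 averaged over both strains (95% interval 0.10 to 0.45, adjusted p = 0.0789). The call depended on the setting. In B6.H2g7 Cd27 was called without B6.H2g7 Treg array 1 (0.47, adjusted p = 0.045), with array weights (0.43, adjusted p = 0.00787) and with the actin covariate (0.38, adjusted p = 0.0429). Calls over all probe sets rose from 1519 to 3460 with array weights and to 2496 with the actin covariate. They fell to 1270 without B6.H2g7 Treg array 1. Averaged over both strains it was called without B6.H2g7 Treg array 1 (0.33, adjusted p = 0.0195).

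Tnfrsf8, which encodes CD30, and Tnfrsf14, which encodes HVEM, the receptor for LIGHT that also binds the inhibitory receptor BTLA, were not called in Treg. Tnfrsf8 averaged 6.65 ± 0.05 and 6.67 ± 0.19 in B6.H2g7 Tconv and Treg and 6.78 ± 0.03 and 6.67 ± 0.13 in NOD Tconv and Treg. Tnfrsf14 averaged 6.74 ± 0.08, 6.78 ± 0.04, 6.94 ± 0.09 and 6.87 ± 0.02 in the same order. The 95% interval of the Treg difference was -0.21 to 0.25 in B6.H2g7 and -0.34 to 0.12 in NOD for Tnfrsf8, and -0.14 to 0.22 and -0.25 to 0.11 for Tnfrsf14. Tnfrsf8 is the neighbour of Tnfrsf1b on chromosome 4, where 7 of the 9 receptors lie (Tnfrsf1a and Cd27 are on chromosome 6).

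**Figure D3:**
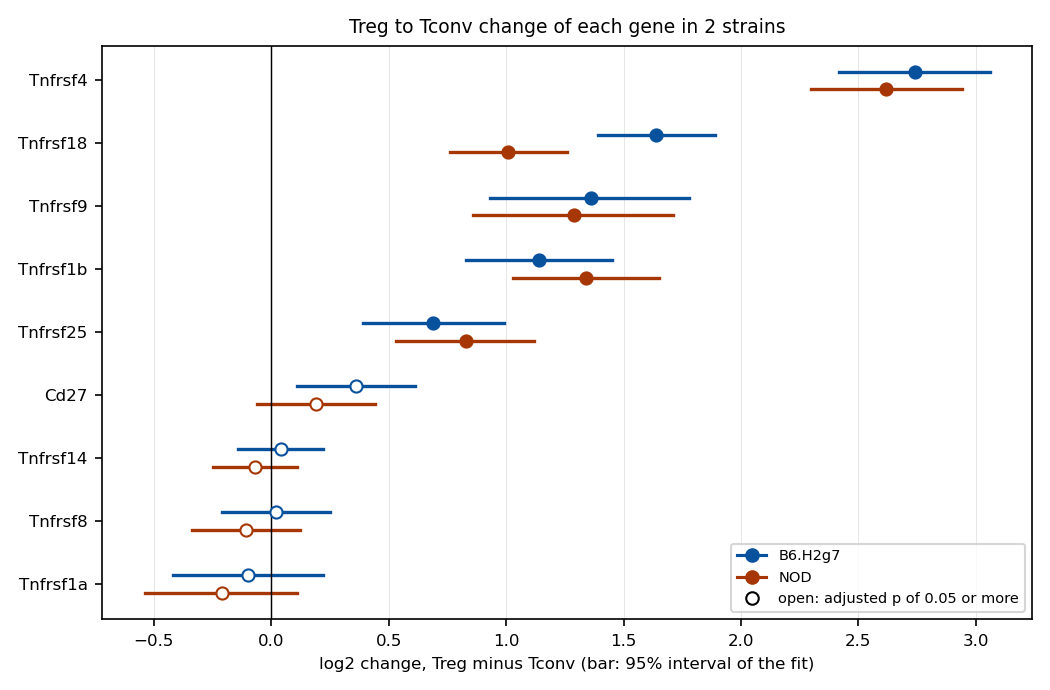
Log2 change from Tconv to Treg (horizontal axis) of each receptor in B6.H2g7 and in NOD, with the 95% interval of limma; filled symbols mark an adjusted p under 0.05. Tnfrsf4 stands at 2.74 and 2.62, Tnfrsf18 at 1.64 and 1.01, and the intervals of Cd27 in NOD, Tnfrsf1a, Tnfrsf8 and Tnfrsf14 include 0.

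The change from Tconv to Treg was compared between the strains by the interaction of strain and cell type. None of the 9 receptors was called for a difference, where 0.11% of all genes were. At an unadjusted p under 0.05 there was 1 receptor, Tnfrsf18, beside 4.97% of all genes. Its change was smaller in NOD by -0.63 ± 0.16 (95% interval -0.99 to -0.28, unadjusted p = 0.00213, adjusted p = 0.581), so it did not pass the correction over all probe sets. For Tnfrsf4 the strain difference in the change was -0.12 (95% interval -0.58 to 0.33), for Tnfrsf9 -0.07 (-0.67 to 0.53), for Tnfrsf1b 0.20 (-0.24 to 0.64), for Tnfrsf25 0.14 (-0.28 to 0.56) and for Cd27 -0.16 (-0.52 to 0.19).

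The strains were then compared within each cell type. In Tconv, 3 of the 9 receptors were called higher in NOD and none lower, where 1.6% of all genes were called higher and 1.45% lower. They were Tnfrsf18 at 0.62 ± 0.12 (1.54-fold, adjusted p = 0.00868), Tnfrsf1b at 0.63 ± 0.14 (1.55-fold, adjusted p = 0.0318) and Cd27 at 0.56 ± 0.12 (1.47-fold, adjusted p = 0.0182). All 3 NOD Tconv arrays were above all 3 B6.H2g7 Tconv arrays for each of these genes. The same separation held for Tnfrsf14 (0.20, adjusted p = 0.357) and Tnfrsf8 (0.13, adjusted p = 0.789), which were not called. The share of all genes that separate in this way was not counted. The calls rest on few arrays: without B6.H2g7 Tconv array 2 only Tnfrsf1b remained called, and without B6.H2g7 Tconv array 3, NOD Tconv array 1 or NOD Tconv array 2 only Tnfrsf18. For Tnfrsf1b the second probe set differed by 0.14 (adjusted p = 0.738), although its arrays also separated by strain. Tnfrsf4, whose group means were 8.67 ± 0.12 and 8.71 ± 0.08, differed by 0.03 (95% interval -0.29 to 0.35), and Tnfrsf25 by 0.09 (adjusted p = 0.898).

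Other genes also separated the Tconv of the strains. Ikzf2, a Treg-enriched transcription factor, was higher in NOD Tconv by 0.76 ± 0.19 (adjusted p = 0.0492), whereas Foxp3 differed by 0.23 (adjusted p = 0.796). Of the 4 Treg markers (Foxp3, Il2ra, Ctla4 and Ikzf2), only Ikzf2 was called, and their median change was 0.30. Their summed intensity was 561 to 790 on the B6.H2g7 Tconv arrays and 885 to 1160 on the NOD Tconv arrays, against 10300 to 15400 on the Treg arrays. Among the 6 markers of activated or effector T cells, Cd69 was higher in NOD Tconv by 1.28 ± 0.15 (adjusted p = 0.000289). The other 5 were not called, and the median change of the 6 was 0.12. Their summed intensity, which mostly follows the brightest genes, was 10900 to 11900 in B6.H2g7 Tconv and 13000 to 13700 in NOD Tconv. The part of these markers in the receptor differences was not tested. With the actin difference as a covariate the NOD Tconv values were 0.59 for Tnfrsf18, 0.60 for Tnfrsf1b and 0.60 for Cd27, all still called. Calls over all probe sets rose from 1333 to 2077 in that fit, so a kept call is not a stricter check. The part of RNA length in these differences was not tested.

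In Treg, 1 of the 9 receptors was called between strains: Tnfrsf1b was higher in NOD by 0.83 ± 0.14 (1.78-fold, adjusted p = 0.00482), where 1.84% of all genes were called higher and 1.49% lower. It was called under all 22 alternatives tried, with the highest adjusted p, 0.0409, when the arrays numbered 1 were left out. Its probe set 1448951_at differed by 0.05 (adjusted p = 0.97). Cd27 differed by 0.39 ± 0.12 (adjusted p = 0.117). Tnfrsf18, which differed between the Tconv groups, averaged 10.84 ± 0.17 and 10.83 ± 0.02 in the Treg groups, a difference of -0.01 (95% interval -0.26 to 0.24). Cd69 was higher in NOD Treg too, by 0.75 ± 0.15 (adjusted p = 0.0153). The other 5 markers of activated or effector T cells were not called, and the median change of the 6 was 0.17. The summed intensity of the NK cell markers was 522 to 565 in NOD Treg and 352 to 434 in B6.H2g7 Treg. The part of these markers in the Tnfrsf1b difference was not tested.

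**Figure D4:**
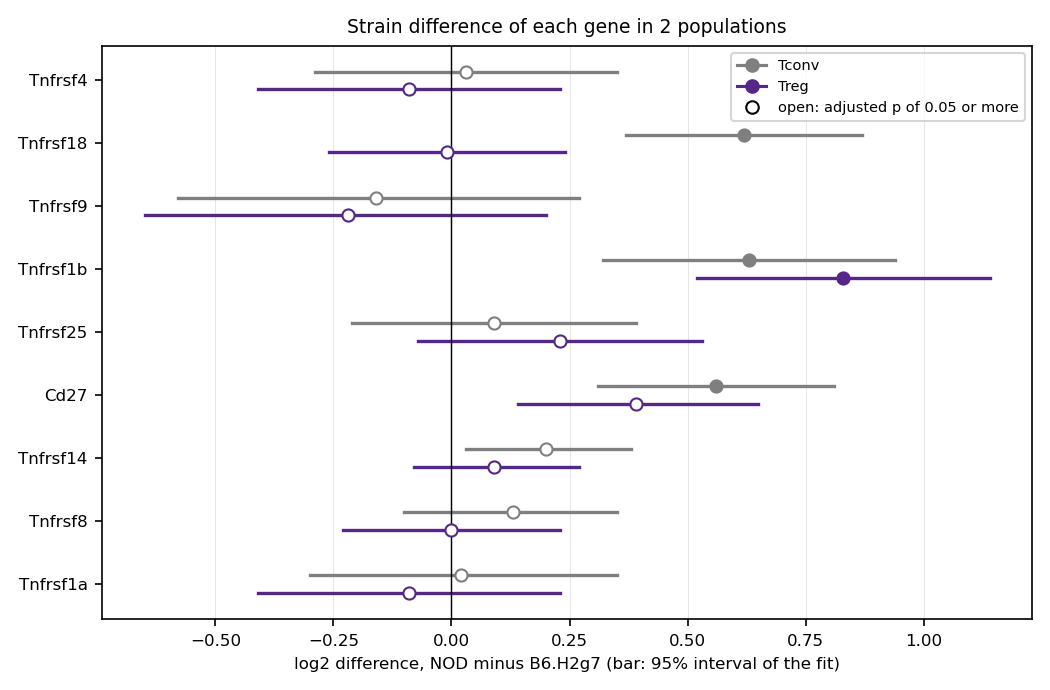
Log2 difference, NOD minus B6.H2g7 (horizontal axis), of each receptor in Tconv and in Treg, with the 95% interval of limma; filled symbols mark an adjusted p under 0.05. Tnfrsf1b is higher in NOD in both cell types (0.63 and 0.83), while Tnfrsf18 stands at 0.62 in Tconv and -0.01 in Treg.

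The rest of the pathway was read from lists of ligands, adaptors and NF-kB genes, in the change from Tconv to Treg averaged over both strains, where 4.46% of all genes were called higher and 3.03% lower. Among the receptors themselves the count is 5 of 9 higher, with a median change of 0.76 beside -0.01 over all genes. Of 18 other measured receptors of the superfamily, 1 was higher and none lower, with a median of 0.02. It was Tnfrsf13b, which encodes TACI, a receptor for BAFF and APRIL known mainly from B cells, at 0.71 ± 0.11 (adjusted p = 0.00117). Its change was 0.92 in B6.H2g7 (adjusted p = 0.00367) and 0.49 in NOD (adjusted p = 0.161). The next smallest p-values were those of Cd40 at 0.21 (adjusted p = 0.135) and Tnfrsf13c at 0.24 (adjusted p = 0.149).

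Of 10 measured ligands, 1 was higher in Treg and none lower, with a median of -0.01. Lta, which encodes lymphotoxin alpha, a secreted ligand of both TNF receptors and of HVEM, averaged 6.91 ± 0.19 and 8.09 ± 0.04 in B6.H2g7 Tconv and Treg and 6.92 ± 0.12 and 8.18 ± 0.18 in NOD Tconv and Treg. It rose by 1.19 in B6.H2g7 (adjusted p = 5.38e-05) and by 1.26 in NOD (adjusted p = 3.5e-05). Ltb, whose product pairs with lymphotoxin alpha at the membrane, differed by 0.31 ± 0.10 (adjusted p = 0.0871), and Cd70, the ligand of CD27, was dim in all groups. The ligands of OX40 and 4-1BB, Tnfsf4 and Tnfsf9, differed by -0.02 (adjusted p = 0.971) and 0.09 (adjusted p = 0.716) in these T cells.

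Of 20 measured adaptors and proximal regulators, 6 were higher in Treg and none lower, with a median of 0.04. Traf1, an adaptor of TNFR2 and 4-1BB and itself an NF-kB target, rose by 1.19 ± 0.14 (adjusted p = 0.000119). Birc3, the ubiquitin ligase cIAP2 that TRAF proteins bring to the receptor, rose by 0.75 ± 0.08 (adjusted p = 3.45e-05), and Tank, a TRAF-binding protein, by 0.80 ± 0.13 (adjusted p = 0.00134). The others were Casp8 at 0.35, Tnip1 at 0.67 and Tnfaip3 at 0.66. Traf2 and Traf5, adaptors shared by most of these receptors, differed by 0.03 (adjusted p = 0.958) and -0.13 (adjusted p = 0.656). Within single strains the list had 6 higher in B6.H2g7 and 3 in NOD (Traf1, Birc3 and Tnip1), and none of its genes was called for a strain difference in the change. Between strains, Tnfaip3, which encodes the NF-kB inhibitor A20, was higher in NOD Tconv by 1.18 ± 0.25 (adjusted p = 0.0204), and Casp8 was lower in NOD Treg at -0.46 ± 0.10 (adjusted p = 0.0236).

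Of 10 measured NF-kB subunits and inhibitors, 5 were higher in Treg and none lower, with a median of 0.25. Rel, the subunit c-Rel that is needed for Treg development in the thymus, rose by 0.80 ± 0.13 (adjusted p = 0.00188). Bcl3, a nuclear coregulator of the family, rose by 1.13 ± 0.18 (adjusted p = 0.0012), and the inhibitor gene Nfkbia by 0.29 ± 0.06 (adjusted p = 0.00644). Relb, a subunit of the non-canonical pathway, was higher by 0.37 (adjusted p = 0.0232) and Nfkbie by 0.51 (adjusted p = 0.0286), while Nfkb2 and Rela differed by 0.18 (adjusted p = 0.327) and 0.14 (adjusted p = 0.226). The counts in single strains were 2 in B6.H2g7 and 4 in NOD.

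**Figure D5:**
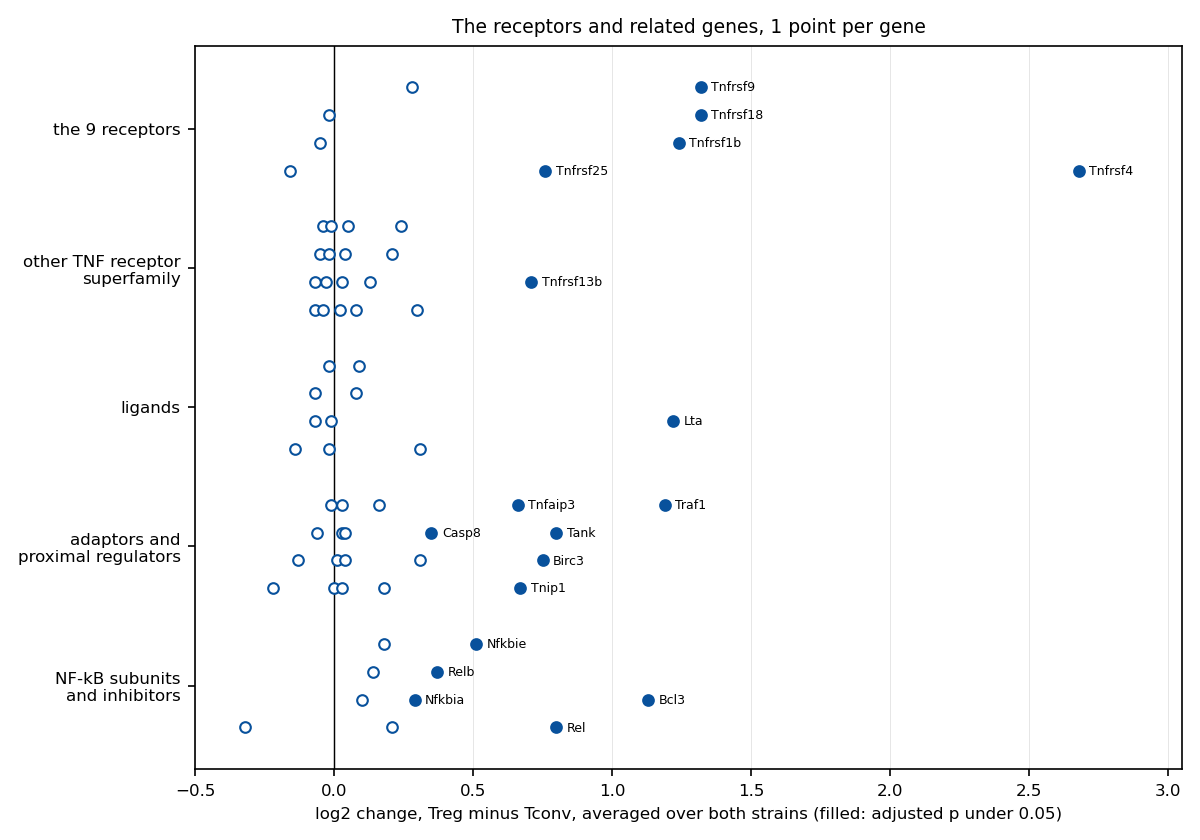
Log2 change from Tconv to Treg averaged over both strains (horizontal axis) for each gene of the 9 receptors and of 4 lists of related genes; 1 point per gene, filled where the adjusted p is under 0.05, with the called genes named. The lists hold 5, 1, 1, 6 and 5 called genes from top to bottom, all of them above 0.

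For each receptor that rose, the genes of most similar pattern were found by Pearson's r of log2 values over the 12 arrays. The arrays share 4 groups and large differences between Treg and Tconv, so r mostly follows that difference and is given as a description. Tnfrsf4 was most like Il2rb (0.998), Foxp3 (0.996) and Il2ra (0.993), the last being the gene of the CD25 protein used in the sort. Tnfrsf18 was most like Cdk6 (0.979), Nrp1 (0.978) and Coro2a (0.977). Tnfrsf9 was most like Sh3gl3 (0.963), Irak2 (0.960) and Selp (0.956). Tnfrsf1b, which also differed between strains, was most like Ndrg1 (0.978), Bhlhe40 (0.972) and Endod1 (0.971), and Tnfrsf25 most like Fdx1 (0.969), Xbp1 (0.956) and Gbp3 (0.952). The 15 genes were all different, but with only 3 kept per receptor this does not show that the patterns differ. The 5 receptors also correlated with each other, from 0.71 (Tnfrsf9 with Tnfrsf1b) to 0.94 (Tnfrsf4 with Tnfrsf9).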

How the data were processed

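RNA of 12 pools of sorted spleen T cells was hybridised to Affymetrix mouse arrays. The authors deposited RMA-normalized intensity values on a linear scale, per the series' design text and the submitters' processing notes (version and genome build not given in the sources used here); detection calls were not used here. Of 45101 probe sets, 64 controls were left out. Platform annotation named 1 gene for 34945 probe sets, several for 932 and none for 9160. The deposited intensities were taken as log2 and fitted with limma 3.58.1 in R 4.3.3 (a mean per group, all 12 arrays, eBayes), with Benjamini-Hochberg adjustment over 45037 probe sets and calls at an adjusted p under 0.05. All 6 comparisons are contrasts of group means. Each gene is read from its brightest probe set (highest mean over all arrays), and the remaining probe sets of a receptor are given beside it. No filter on low values was applied, and no fold or log2 change of a receptor is given where a group mean is dim. The number of arrays limits the precision; replicates are independent pools per the labels. The fit was also run on simulated data with changes planted in 200 probe sets, in B6.H2g7 Treg only. The simulated noise was independent between arrays, so correlation between same-numbered arrays was not part of that test.

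All 9 receptors are named, with the 3 most similar genes of each that was called in the averaged comparison and the 3 smallest p-values of each list; other genes were named after their values were seen. The receptors and lists were chosen with earlier results of these data known. All 9 receptors matched RefSeq by symbol. Tnfrsf26, Tnfsf18, Tnfsf15, Traf3, Ripk1, Nfkb1, Chuk and the markers Klrb1c and Ly6g had no probe set naming them alone and were not analysed here. Replicate numbers were checked for pairing by correlating the deviations of same-numbered arrays. All 3 pairs were above 0.1 for B6.H2g7 Treg with NOD Tconv (0.279 to 0.551) and with NOD Treg (0.302 to 0.671). The same held for NOD Tconv with NOD Treg (0.315 to 0.564). Only 2 of 3 pairs were above 0.1 for B6.H2g7 Tconv with B6.H2g7 Treg (-0.08 to 0.521), NOD Tconv (-0.041 to 0.436) and NOD Treg (-0.21 to 0.345). Alternatives were scaling, weights, a dim filter, the mean of probe sets, variance settings, the actin covariate, the replicate block, fewer arrays and each array left out.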

Additional observations from a re-analysis of the deposited data

How the results depend on the processing

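No alternative turned the direction of a called receptor. Of 413 values of called receptors under the alternatives, 394 kept their call and 19 lost it. Many of these alternatives could not change the size of a difference, only its spread or adjusted p. They are the replicate block, the dim filter, the variance settings, the fit to only the 6 arrays compared and the loss of an array outside the comparison. The mean of probe sets also could not change the size for a receptor with 1 probe set. For example, Tnfrsf4 in B6.H2g7 stayed at 2.74 without NOD Treg array 1. The number of receptors called stayed within 1.5 times in every comparison but those between strains. In Tconv it was 1 to 3 over the fits without 1 array each, and in Treg it was 2 with array weights (Tnfrsf1b, and Cd27 at 0.35, adjusted p = 0.0491). Array weights also raised the calls over all probe sets between strains in Treg, from 1468 to 2361. In Tconv, Tnfrsf1b also lost its call with the mean of its probe sets (0.39, adjusted p = 0.0712), without the arrays numbered 1 (0.47, adjusted p = 0.218) and with 6 arrays (0.63, adjusted p = 0.0544), and Cd27 with quantile normalization (0.50, adjusted p = 0.0854); the cause was not tested. The mean of probe sets gave smaller Treg rises for Tnfrsf9 (0.56 in B6.H2g7, 0.73 in NOD) and Tnfrsf1b (0.62 and 0.67), and 0.44 for Tnfrsf1b between strains in Treg. The averaged Cd27 rise was called with the actin covariate (adjusted p = 0.0372), array weights (0.00429), the mean of probe sets (0.0417) and without the arrays numbered 1 (0.025). Calls over all probe sets in this comparison rose from 2632 to 4138 with the actin covariate and to 4796 with array weights. They fell to 2356 without the arrays numbered 1. With the replicate number as a block, 5, 5, 5, 0, 3 and 1 receptors were called in the 6 comparisons, as without it, although calls over all probe sets rose from 1519 to 2286 in B6.H2g7, from 1443 to 2362 in NOD and from 42 to 89 for the strain difference. Same-numbered arrays correlated above 0.1 in only 2 of 3 pairs with B6.H2g7 Tconv, so the block is kept as an alternative. With 3 arrays a group and no detection calls, dim probe sets such as 1421481_at of Tnfrsf9 carry no readable difference.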
